A study of Mus musculus with 8 samples.

Results

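The naive pluripotency genes described here are 10 regulators and markers of mouse embryonic stem (ES) cells: Stat3, Klf2, Klf4, Klf5, Tbx3, Esrrb, Nr5a2, Zfp42, Tcl1 and Jam2. They were taken by name as all probes annotated to them, which gave 21 of the 25697 probes on an Illumina mouse bead array, for 10 of the 8747 genes that its probes name here. All 21 had a detection p-value under 0.05 on all 8 arrays, so none was lost to the filter that left 12932 probes for testing. Of the 10 genes, 8 encode transcription factors, whereas Tcl1 encodes a cofactor of AKT kinases and Jam2 a cell surface adhesion protein. These genes and the gene lists used further below were chosen with earlier results of these data known. The array was hybridised with total RNA from 4 groups of cells, 2 arrays each, all of a B6D2F1 hybrid mouse background. The Igf2-labelled group was made from parthenogenetic ES cells and is titled as overexpressing Igf2, a growth factor gene normally read from the paternal allele. The H19-labelled group was made from the same kind of cell and is titled as having lowered H19, a maternally read noncoding RNA gene beside Igf2. Parthenogenetic ES cells are labelled as coming from oocytes and carry maternal genomes alone, and the normal ES cells are labelled as coming from embryos. No source used here gives the construct, the number of clones, the medium or the feeder layer behind any group. Whether the 2 replicates of a group came from separate cultures is not stated, so every p-value is read against the spread between arrays only, and their number limits the precision throughout.

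Mouse ES cells in the naive state resemble the epiblast of the blastocyst before implantation. Leukaemia inhibitory factor (LIF) activates the kinase JAK and the transcription factor STAT3, which raises the Krüppel-like factor KLF4, while WNT signalling relieves the repression of Esrrb by TCF7L1. KLF2, KLF4, KLF5, TBX3, ESRRB and NR5A2 then act on the genes of the OCT4, SOX2 and NANOG circuit with partly overlapping roles. Zfp42 (also called Rex1), Tcl1 and Jam2 are often used to read that state, and their transcripts decline when ES cells leave it.

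The label of the Igf2-labelled group did not show on the brightest Igf2 probe, the only one read here. Igf2 stood at 15.61 and 15.49 on the log2 scale of normalized intensity on the Igf2-labelled arrays, 14.98 and 14.94 on the H19-labelled arrays, 15.58 and 15.62 in parthenogenetic ES cells, and 15.62 and 13.63 in normal ES cells. Most of these levels lay near the top of the scale, where the pluripotency gene Dppa5a stood at 15.93 to 15.98, so a further rise might not show. No probe carried the name H19, so its level was not analysed here. The ES cell markers Pou5f1, Nanog, Sox2 and Utf1 were detected on all 8 arrays. Replicate arrays correlated at 0.9954 to 0.9956 in each group except the normal ES cells, whose arrays correlated at 0.9614 and differed by more than 1 log2 unit at 1027 probes, against 20 or 21 in the other pairs. Markers of fibroblasts, a common feeder layer, were detected on every array in 18 of the 19 genes measured. Their mean level was 11.48 and 11.50 on the Igf2-labelled arrays, 10.91 on both H19-labelled arrays, 11.67 and 11.71 in parthenogenetic ES cells, and 11.77 and 10.31 in normal ES cells. Igf2 too was lowest on the H19-labelled arrays and normal replicate 2, and the part of other cells in its level was not tested. The mean of 5 endoderm markers was 9.45 on normal replicate 2 and 8.46 to 8.57 on the other 7 arrays. Among them Amn differed most, at 7.30 on normal replicate 1 and 10.72 on normal replicate 2. Dab2 (10.60 and 11.47), Gata6 (8.49 and 9.46) and Gata4 (6.64 and 6.93) were higher by less, and Pdgfra was lower (9.40 and 8.66). All 4 groups share 1 estimate of each probe's spread in the limma fit, so the gap between the normal arrays also widens the error of comparisons that do not contain them. Adjusted p-values are therefore also given from the fit of the 6 arrays without the normal ES cells, where a comparison allows it.

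On the H19-labelled arrays Jam2 rose on all 4 of its probes, by 0.77 to 0.85 on the log2 scale, and Klf2 fell by 0.57, both against parthenogenetic ES cells. Tbx3 and Tcl1 stood 0.54 to 0.87 higher on both kinds of modified array than in parthenogenetic ES cells. None of their 5 probes passed the threshold of an adjusted p of 0.05 with all arrays, and all did without the normal arrays except 1 Tbx3 probe on the Igf2-labelled arrays. In that fit 9.7% of all tested probes passed on the Igf2-labelled and 33.2% on the H19-labelled arrays, in either direction. Zfp42, Klf5 and Esrrb were 0.16 to 0.44 higher, and Klf4, Nr5a2 and Stat3 lay within 0.22 of parthenogenetic ES cells on every probe. No member probe passed for parthenogenetic against normal ES cells. In these samples of whole cultures, fewer cells with a transcript and less of it per cell cannot be told apart.

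**Figure D1:**
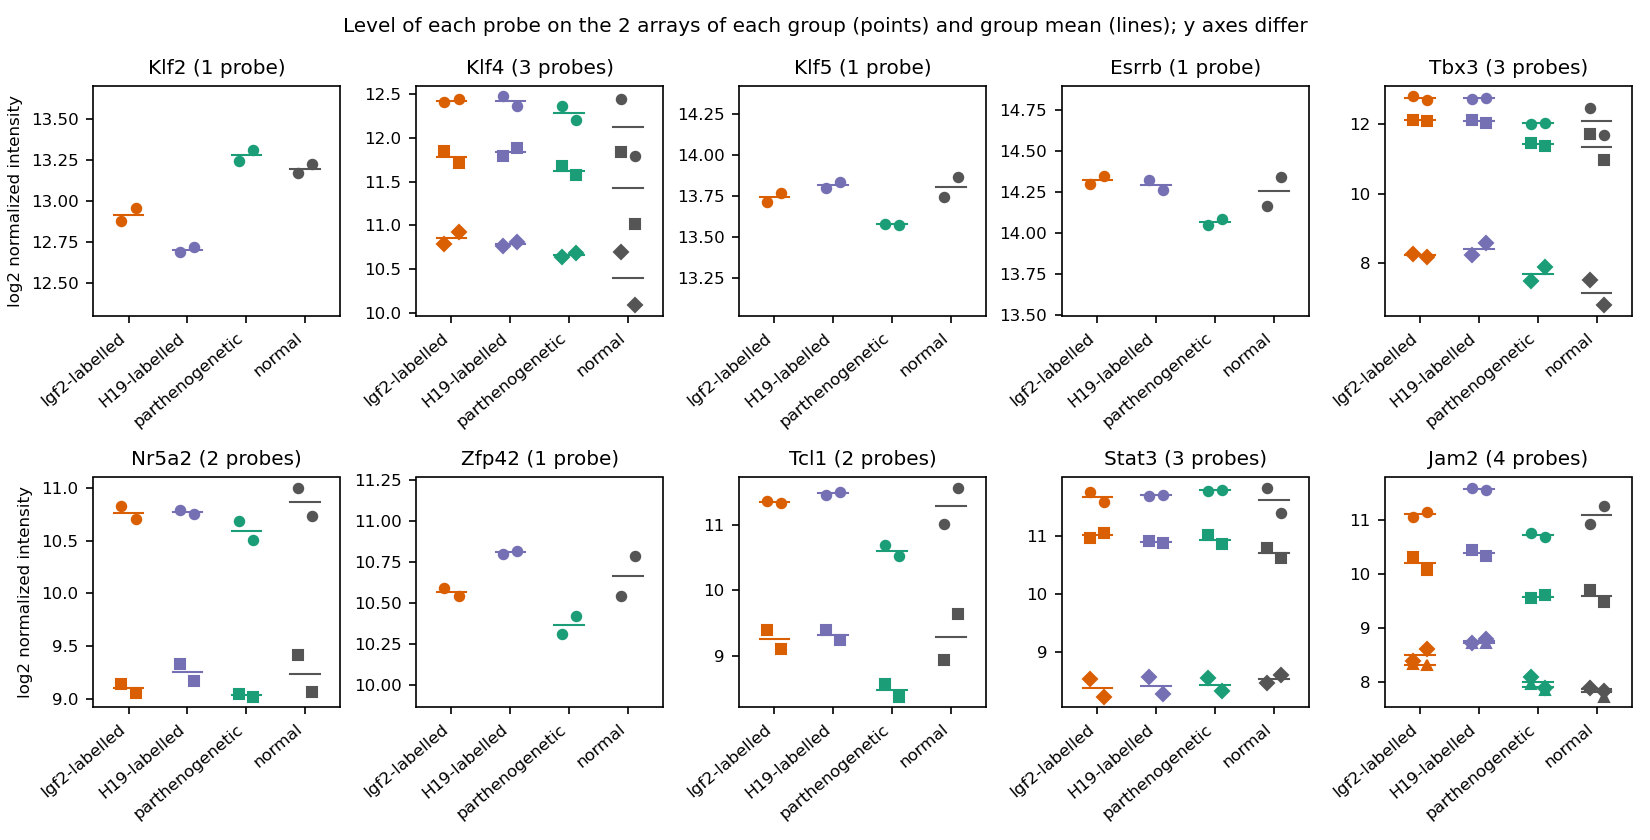
Level of each of the 21 probes on the log2 scale of normalized intensity (y axis, a different range in each panel), 1 panel per gene and 1 symbol shape per probe. Points are the 2 arrays of each group and lines the group means. Klf2 is lowest on the H19-labelled arrays at 12.69 and 12.72, Jam2 is highest there on every probe, and the normal arrays lie far apart for Klf4 and Tbx3.

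Promoters are shown for the 3 members with a RefSeq entry whose H19-labelled difference passed the threshold without the normal arrays, since Klf2 was lower and Zfp42 and Tcl1 higher on those arrays. RefSeq promoter entries (GRCm38.p6) matched 7 of the 10 members. Each sequence runs from 250 bases before to 50 bases after the annotated start of the gene, on the strand of the gene. They lie at chr8:72318812-72319111 on the plus strand (Klf2), chr8:43306960-43307259 on the minus strand (Zfp42) and chr12:105222688-105222987 on the minus strand (Tcl1). Capitals mark the letters of a searched motif read on either strand.
Klf2: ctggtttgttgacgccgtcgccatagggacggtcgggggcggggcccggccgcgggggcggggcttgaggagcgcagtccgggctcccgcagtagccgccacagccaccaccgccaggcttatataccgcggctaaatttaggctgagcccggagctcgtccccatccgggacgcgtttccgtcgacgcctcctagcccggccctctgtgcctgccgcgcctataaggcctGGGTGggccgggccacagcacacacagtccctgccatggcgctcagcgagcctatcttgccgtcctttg
Zfp42: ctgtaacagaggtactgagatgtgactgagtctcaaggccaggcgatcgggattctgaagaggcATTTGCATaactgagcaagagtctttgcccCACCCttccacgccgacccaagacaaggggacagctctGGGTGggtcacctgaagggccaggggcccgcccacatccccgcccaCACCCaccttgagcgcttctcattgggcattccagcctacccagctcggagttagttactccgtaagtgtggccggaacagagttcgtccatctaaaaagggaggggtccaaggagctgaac
Tcl1: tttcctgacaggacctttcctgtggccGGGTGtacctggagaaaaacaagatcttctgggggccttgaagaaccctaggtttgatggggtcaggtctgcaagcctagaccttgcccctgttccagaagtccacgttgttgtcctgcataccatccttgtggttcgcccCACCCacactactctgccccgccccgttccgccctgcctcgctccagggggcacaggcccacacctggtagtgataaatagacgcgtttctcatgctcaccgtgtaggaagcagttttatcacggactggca
The motifs searched were the Krüppel-like factor box CACCC, the STAT site TTCNNNGAA, the TCF/LEF site CTTTGAT, the ESRRB site AAGGTCA, the SOX motif ATTGTT and the octamer ATGCAAAT. CACCC is read as GGGTG on the opposite strand, and no match overlapped another. The Klf2 window held 1 CACCC box, 19 bases before the start, the Tcl1 window 2 and the Zfp42 window 3. Such a box is common, since 57.5% of the 32851 RefSeq promoter windows of this length hold at least 1. The Zfp42 window also held the octamer, the motif that OCT4 binds, 186 bases before the start, which 1.74% of the windows hold. GC content was 69.3% for Klf2, 57.7% for Zfp42 and 56.7% for Tcl1.

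Stat3, the factor that carries the LIF signal into the nucleus, was measured by 3 probes. The brightest stood at 11.75 and 11.57 on the Igf2-labelled arrays, 11.68 and 11.70 on the H19-labelled arrays, 11.77 and 11.78 in parthenogenetic ES cells, and 11.82 and 11.39 in normal ES cells. The Igf2-labelled and H19-labelled pairs lay just below the parthenogenetic pair on it, inside the range of the normal arrays. Its difference from parthenogenetic ES cells was -0.12 (95% interval -0.49 to 0.26) on the Igf2-labelled arrays and -0.09 (-0.47 to 0.29) on the H19-labelled arrays. The other probes, at mean levels of 10.71 to 11.01 and of 8.38 to 8.53, differed by -0.06 to 0.08 from parthenogenetic ES cells in both modified lines. Over all 3 probes the adjusted p-values of these differences lay between 0.78 and 0.971, and between 0.447 and 0.94 without the normal arrays. Intervals of this width leave room for changes of up to 0.49.

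Klf2, a Krüppel-like factor that OCT4 activates and that MEK and ERK signalling destabilises as a protein, was measured by 1 probe. It stood at 12.88 and 12.96 on the Igf2-labelled arrays, 12.69 and 12.72 on the H19-labelled arrays, 13.24 and 13.31 in parthenogenetic ES cells, and 13.17 and 13.22 in normal ES cells. The 4 pairs did not overlap, with the H19-labelled arrays lowest, the Igf2-labelled arrays next, and the normal and parthenogenetic arrays highest and close together. Before normalization its intensity was 6935 and 6249 units on the H19-labelled arrays and 9546 and 9750 units in parthenogenetic ES cells. Klf2 fell by 0.57 on the H19-labelled arrays (SE 0.10, adjusted p = 0.0339), to a level 0.672 times that of parthenogenetic ES cells. Its adjusted p was 0.00229 without the normal arrays. On the Igf2-labelled arrays the difference was -0.36 (SE 0.10, adjusted p = 0.219), and it passed without the normal arrays (adjusted p = 0.033). The H19-labelled call was lost under several alternatives. Median scaling gave an adjusted p of 0.0706. Leaving out any 1 array of the Igf2-labelled, H19-labelled or parthenogenetic groups also ended the call, with differences of -0.61 to -0.54. Those fits ended most calls over all tested probes too, so that loss is not particular to Klf2. The 2 modified lines are neighbours in this order, and their difference of -0.21 did not pass (adjusted p = 0.399, and 0.0943 without the normal arrays). All 19 fibroblast markers were below parthenogenetic ES cells on the H19-labelled arrays too, with a median of -0.83 (Ccn2 past the threshold with all arrays and 18 of them without the normal ones), and their part in the fall of Klf2 was not tested. Klf2 stood at 13.22 on normal replicate 2, the array with the lowest fibroblast markers.

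Klf4, a direct STAT3 target and one of the reprogramming factors, gave no call on its 3 probes. The brightest read 12.41 and 12.44 on the Igf2-labelled arrays, 12.47 and 12.37 on the H19-labelled arrays, 12.36 and 12.21 in parthenogenetic ES cells, and 12.45 and 11.79 in normal ES cells. Normal replicate 2 stood 0.61 to 0.82 below normal replicate 1 on the 3 probes and below every other array, whereas the other 3 groups lay close together. Differences from parthenogenetic ES cells were 0.14 to 0.20 on the Igf2-labelled arrays and 0.13 to 0.22 on the H19-labelled arrays. Their adjusted p-values were 0.644 to 0.938, and 0.105 to 0.357 without the normal arrays. Their 95% intervals reached up to 0.81.

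Klf5, which supports proliferation of ES cells, was measured by 1 probe. It read 13.71 and 13.77 on the Igf2-labelled arrays, 13.80 and 13.83 on the H19-labelled arrays, 13.58 and 13.57 in parthenogenetic ES cells, and 13.74 and 13.87 in normal ES cells. The parthenogenetic pair was lowest and did not overlap any other group, while the other 3 groups lay together. The difference from parthenogenetic ES cells was 0.24 (SE 0.10, adjusted p = 0.23) on the H19-labelled arrays, which passed without the normal arrays (adjusted p = 0.043). On the Igf2-labelled arrays it was 0.16 (SE 0.10, adjusted p = 0.695, and 0.203 without the normal arrays).

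Tbx3, a T-box factor that sustains self-renewal and can also direct ES cells to extraembryonic endoderm, was measured by 3 probes. The brightest read 12.78 and 12.68 on the Igf2-labelled arrays, 12.70 and 12.75 on the H19-labelled arrays, 12.003 and 12.026 in parthenogenetic ES cells, and 12.44 and 11.69 in normal ES cells. The next read 12.11 and 12.09 on the Igf2-labelled arrays, 12.12 and 12.01 on the H19-labelled arrays, 11.46 and 11.38 in parthenogenetic ES cells, and 11.72 and 10.96 in normal ES cells. On both probes all 4 modified arrays lay above all 4 other arrays, and the parthenogenetic pair lay between the normal arrays. The brightest probe was 1.64 times as high as in parthenogenetic ES cells on the Igf2-labelled arrays, a difference of 0.72 (SE 0.23, adjusted p = 0.279, and 0.0053 without the normal arrays). On the H19-labelled arrays the same probe differed by 0.71 (SE 0.23, adjusted p = 0.127, and 0.00122 without the normal arrays). The second probe differed by 0.68 and 0.65 in the same 2 comparisons, again past the threshold without the normal arrays only (adjusted p = 0.00654 and 0.00181). The dimmest probe, at group means of 7.17 to 8.41, differed by 0.54 on the Igf2-labelled arrays, which did not pass in either fit, and by 0.71 on the H19-labelled arrays (adjusted p = 0.0187 without the normal arrays). Between the modified lines the brightest probe differed by -0.0048 with a 95% interval of -0.55 to 0.54. The fibroblast marker means of these lines were 10.9 on the H19-labelled and 11.5 on the Igf2-labelled arrays, and the part of other cells in the normal arrays' gap for Tbx3 was not tested.

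Esrrb, an orphan nuclear receptor, read 14.30 and 14.35 on the Igf2-labelled arrays, 14.32 and 14.26 on the H19-labelled arrays, 14.05 and 14.08 in parthenogenetic ES cells, and 14.17 and 14.34 in normal ES cells. As for Klf5, the parthenogenetic pair was below every other array. The difference from parthenogenetic ES cells was 0.26 (SE 0.11, adjusted p = 0.461, and 0.0798 without the normal arrays) on the Igf2-labelled arrays and 0.23 (SE 0.11, adjusted p = 0.271, and 0.0547) on the H19-labelled arrays. Nr5a2, a nuclear receptor that can activate Pou5f1, was measured by 2 probes. The brighter read 10.82 and 10.70 on the Igf2-labelled arrays, 10.79 and 10.76 on the H19-labelled arrays, 10.68 and 10.50 in parthenogenetic ES cells, and 10.999 and 10.736 in normal ES cells. The parthenogenetic pair was lowest on it, just under the Igf2-labelled pair. Neither Nr5a2 probe passed in either fit, with differences from parthenogenetic ES cells of 0.07 to 0.22 in the modified lines (adjusted p = 0.0978 to 0.678 without the normal arrays).

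Zfp42, the zinc finger gene whose promoter window holds the octamer shown above, read 10.59 and 10.54 on the Igf2-labelled arrays, 10.80 and 10.82 on the H19-labelled arrays, 10.31 and 10.42 in parthenogenetic ES cells, and 10.54 and 10.79 in normal ES cells. Both H19-labelled arrays were above all other arrays and both parthenogenetic arrays below them. The H19-labelled difference from parthenogenetic ES cells was 0.44 (SE 0.12, adjusted p = 0.0932, and 0.00643 without the normal arrays). The Igf2-labelled difference was 0.20 (SE 0.12, adjusted p = 0.669, and 0.157 without the normal arrays). The modified lines themselves differed by 0.24 (adjusted p = 0.424, and 0.0731 without the normal arrays), so a larger difference in the H19-labelled line was not shown.

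Tcl1, whose product binds AKT kinases and raises their activity, was measured by 2 probes. The brighter read 11.36 and 11.33 on the Igf2-labelled arrays, 11.45 and 11.50 on the H19-labelled arrays, 10.68 and 10.53 in parthenogenetic ES cells, and 11.01 and 11.56 in normal ES cells. The dimmer read 9.39 and 9.10 on the Igf2-labelled arrays, 9.40 and 9.24 on the H19-labelled arrays, 8.57 and 8.37 in parthenogenetic ES cells, and 8.94 and 9.63 in normal ES cells. On both probes the parthenogenetic pair was below the 6 other arrays, and the modified lines lay within the range of the normal arrays. The brighter probe differed from parthenogenetic ES cells by 0.87 (SE 0.18, adjusted p = 0.0513) on the H19-labelled arrays, a 1.83-fold higher level, and passed without the normal arrays (adjusted p = 0.000892). On the Igf2-labelled arrays it differed by 0.74 (SE 0.18, adjusted p = 0.169, and 0.00603 without the normal arrays). The dimmer probe gave 0.85 on the H19-labelled arrays and 0.77 on the Igf2-labelled arrays, each past the threshold without the normal arrays only (adjusted p = 0.00407 and 0.0185). Parthenogenetic against normal ES cells differed by -0.68 and -0.81 on these probes (adjusted p = 0.328 and 0.363). The modified lines differed from each other by 0.13 on the brighter probe (95% interval -0.31 to 0.57). On normal replicate 2, where the fibroblast markers were lowest, the Tcl1 probes stood 0.55 and 0.69 above normal replicate 1. These markers were also lower on the H19-labelled arrays, and their part in the Tcl1 differences was not tested.

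Jam2, which encodes the junctional adhesion molecule JAM-B on the surface of undifferentiated ES cells, had 4 probes. The brightest read 11.07 and 11.16 on the Igf2-labelled arrays, 11.60 and 11.56 on the H19-labelled arrays, 10.77 and 10.69 in parthenogenetic ES cells, and 10.93 and 11.26 in normal ES cells. The second read 10.31 and 10.09 on the Igf2-labelled arrays, 10.45 and 10.34 on the H19-labelled arrays, 9.56 and 9.60 in parthenogenetic ES cells, and 9.71 and 9.48 in normal ES cells. The H19-labelled pair was highest on both probes, and the Igf2-labelled pair lay above the parthenogenetic pair. The 2 dimmest probes, with group means of 7.82 to 8.77, also had the H19-labelled pair highest and the Igf2-labelled pair next. Jam2 rose on the H19-labelled arrays by 0.85 (SE 0.14, adjusted p = 0.0247), 0.82 (SE 0.13, adjusted p = 0.0274), 0.77 (SE 0.13, adjusted p = 0.0282) and 0.82 (SE 0.11, adjusted p = 0.0183) from the brightest to the dimmest probe, or 1.71-fold to 1.81-fold against parthenogenetic ES cells. The fit without the normal arrays gave adjusted p-values of 0.000831 to 0.0032. Leaving out any 1 array of the Igf2-labelled, H19-labelled or parthenogenetic groups ended the call on each probe, with differences of 0.67 to 0.89. Such fits ended most calls over all tested probes too, so this loss is not particular to Jam2. On the Igf2-labelled arrays the probes differed by 0.38 to 0.62 from parthenogenetic ES cells (adjusted p = 0.128 to 0.34), and all 4 passed without the normal arrays (adjusted p = 0.017 to 0.0378). Between the H19-labelled and Igf2-labelled arrays the probes differed by 0.20 to 0.47, with no call over all arrays (adjusted p = 0.229 to 0.543). The brightest and the dimmest probe passed without the normal arrays (adjusted p = 0.0095 and 0.0148) and the others did not. The fibroblast markers that were lower on the H19-labelled arrays moved opposite to Jam2 there, and their part in the rise was not tested. Normal replicate 2, where these markers were lowest, minus normal replicate 1 gave 0.33 on the brightest Jam2 probe and -0.23, -0.06 and -0.19 on the others, so the probes differed in sign.

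**Figure D2:**
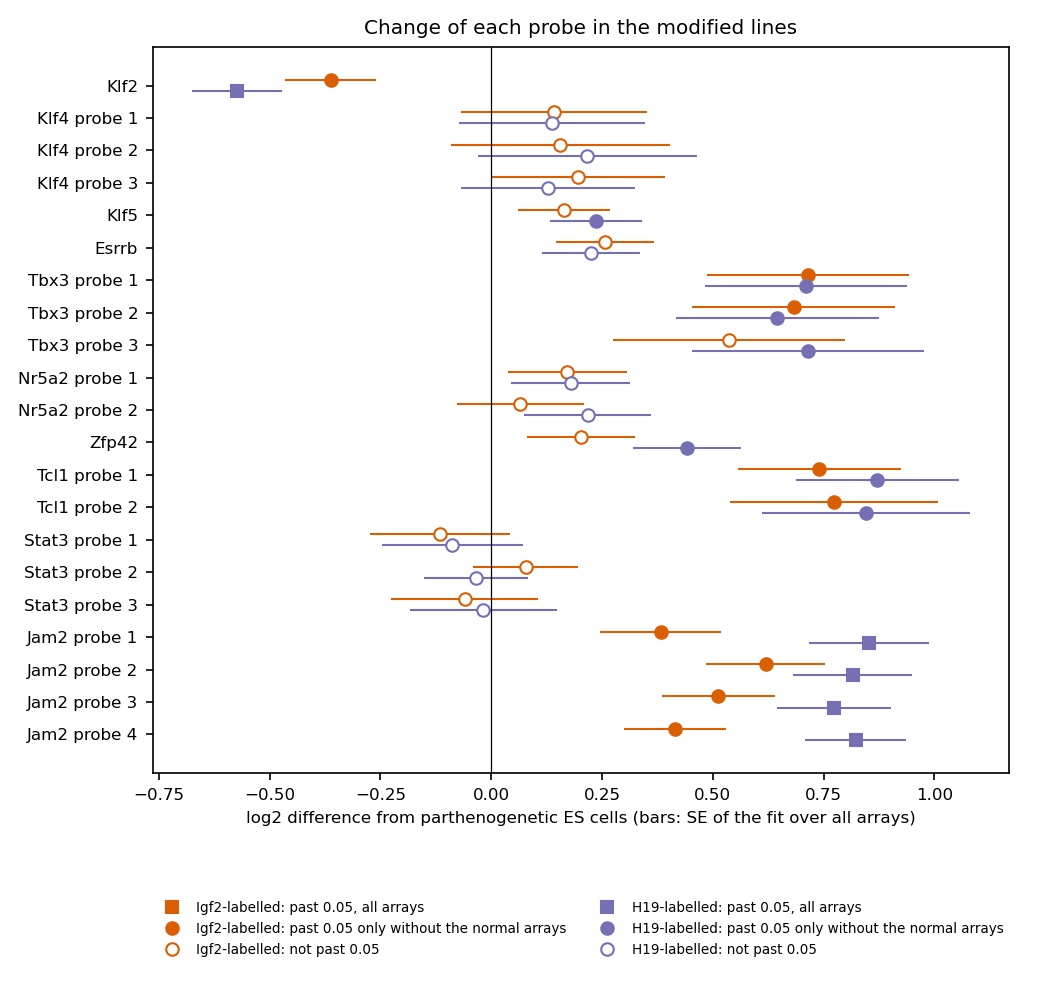
Difference of each probe from parthenogenetic ES cells on the log2 scale (x axis) for the Igf2-labelled and H19-labelled arrays, with the SE of the fit over all 8 arrays as bars. Filled squares passed an adjusted p of 0.05 over all arrays, filled circles only without the normal arrays, and open circles in neither fit. The squares are the 4 Jam2 probes and Klf2 on the H19-labelled arrays.

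The Igf2-labelled against parthenogenetic comparison asks what differs between the modified line and the cells it was made from. Of the 21 member probes 0 passed in limma, beside 0.541% of all 12932 tested probes, and 9 had an unadjusted p under 0.05, as had 11.1% of all tested probes. Without the normal arrays 8 probes of Tbx3, Tcl1 and Jam2 were higher (5.44% of all tested probes were) and Klf2 was lower (4.25%) past the threshold, beside 9.7% in both directions. The groups did not overlap on 19 of the 21 probes, higher on 17 (26% of all tested probes) and lower on 2 (29.2%). The member probes had a median difference of 0.20, and all tested probes one of -0.01.

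For the H19-labelled against parthenogenetic comparison, which asks the same of the other line, 4 probes rose (2.52% of all tested probes did) and 1 fell (1.83%), beside 4.35% in both directions. Jam2 and Klf2 are the 2 genes concerned, and 11 member probes had an unadjusted p under 0.05, as had 23% of all tested probes. In the fit without the normal arrays 11 probes of Jam2, Tbx3, Tcl1, Zfp42 and Klf5 were higher (16.1% of all tested probes were) and that of Klf2 lower (17.1%) past the threshold, beside 33.2% in both directions. Again 17 probes were higher (36.4% of all tested probes) and 2 lower (32.7%) with no overlap. The median over the member probes was 0.24, against 0.02 over all tested probes. Both modified lines are set against the same 2 parthenogenetic arrays, so their differences are not independent of each other.

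Between the H19-labelled and Igf2-labelled arrays 0 member probes passed over all arrays, beside 0.201% of all probes, and 2 had an unadjusted p under 0.05, as had 13.9% of all tested probes. The 2 Jam2 probes passed without the normal arrays, beside 20.6% of all probes. The member median was 0.06, and that of all tested probes 0.03. A member probe that passed in 1 modified line and not in the other is thus not shown to differ between them over all arrays. Over all arrays those 2 Jam2 probes had adjusted p-values of 0.237 and 0.229.

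Parthenogenetic against normal ES cells sets cells with maternal genomes alone beside cells with both. Here 0 member probes passed in limma, beside 0.108% of all probes, and 4 had an unadjusted p under 0.05, as had 11% of all tested probes. The member median was -0.02 (-0.01 over all). Tcl1, Zfp42, Klf5, Esrrb and Nr5a2 had lower means in parthenogenetic ES cells on every probe (-0.81 to -0.19), and Klf4 higher ones (0.16 to 0.26). The comparison turned on which normal array was used. With normal replicate 2 as the sole normal array 13 member probes passed, beside 40.2% of all probes, and with normal replicate 1 as the sole one 0 passed, beside 0.874%. The 13 included lower Tcl1 (-0.96 and -1.16), Zfp42 (-0.42), Klf5 (-0.29), Esrrb (-0.27) and the brightest Jam2 probe (-0.53), and higher Klf4 (0.49 to 0.61), Tbx3 (0.32 to 0.89) and the brightest Stat3 probe (0.38). The brightest Tbx3 probe differed by -0.43 against normal replicate 1 (adjusted p = 0.11) and by 0.32 against normal replicate 2 (adjusted p = 0.0336), and the second Tbx3 probe by -0.30 and 0.46. Against normal replicate 1 the 3 Klf4 probes differed by -0.21 to -0.04 and the brightest Stat3 probe by -0.04, opposite in sign to their values against normal replicate 2, so none of these had a fixed direction. The dimmest Tbx3 probe kept its sign, at 0.17 against normal replicate 1 and 0.89 against normal replicate 2. On normal replicate 2 its level of 6.80 lay near the lowest detected signal of that array, 6.74.

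**Figure D3:**
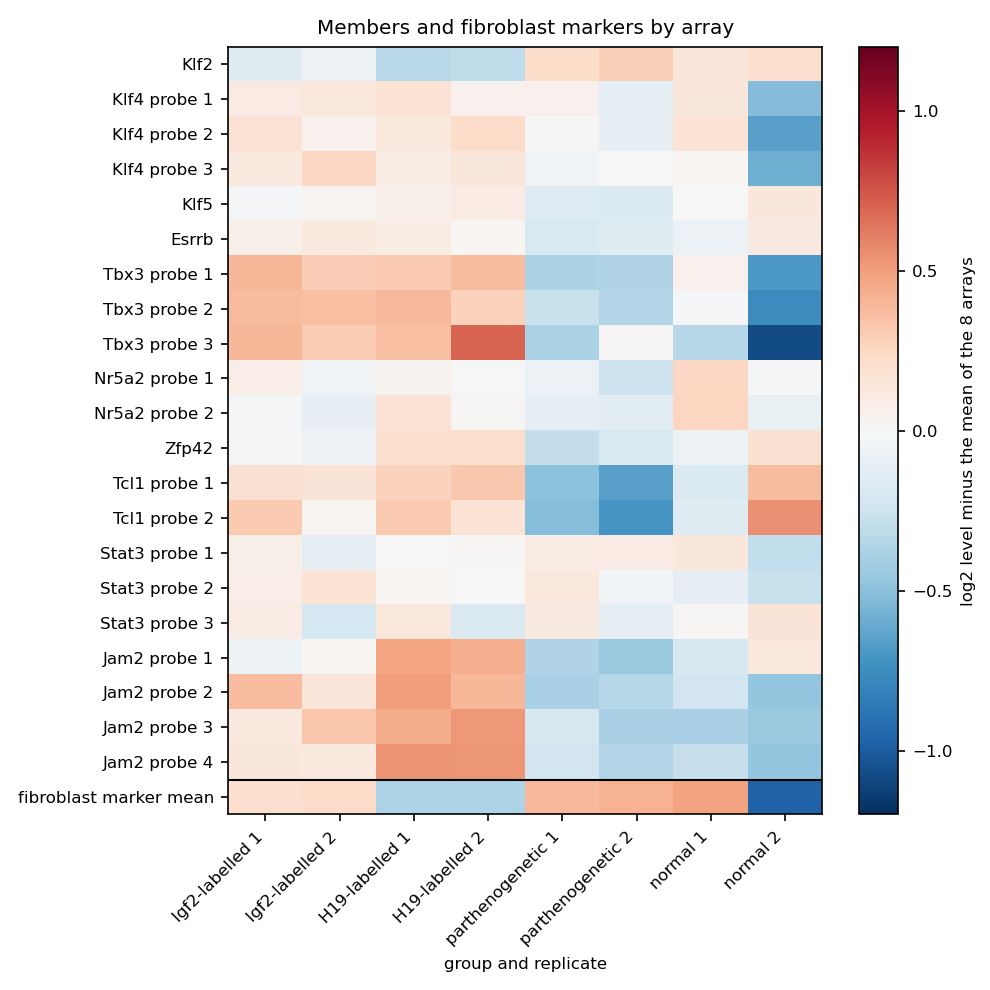
Each of the 21 probes on each of the 8 arrays (columns), as its log2 level minus its mean over the arrays (colour), with the mean of the 19 fibroblast markers in the bottom row. Normal replicate 2 is lowest for Klf4, Tbx3 and the fibroblast markers, and the 2 parthenogenetic arrays are lowest for Tcl1, Zfp42, Klf5 and Esrrb.

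Against normal ES cells the Igf2-labelled arrays gave 0 calls among the member probes, beside 1.05% of all probes, with 8 at an unadjusted p under 0.05, as were 15.8% of all tested probes. The brightest Jam2 probe differed by 0.01 there, and the other Jam2 probes by 0.50 to 0.64. The H19-labelled arrays gave 5, beside 5.03% of all probes. The higher ones (2.95% of all tested probes) were 3 Jam2 probes with 0.80 to 0.91 (adjusted p = 0.0102 to 0.0234) and the dimmest Tbx3 probe with 1.24 (adjusted p = 0.0468). On normal replicate 2 that Tbx3 probe stood at 6.80, near the lowest detected signal of the array, 6.74. The brighter Tbx3 probes differed by 0.66 and 0.72 and did not pass (adjusted p = 0.16 and 0.136). The brightest Jam2 probe differed by 0.48 and did not pass (adjusted p = 0.101). On the lower side (2.08% of all tested probes) Klf2 fell by 0.49 (SE 0.10, adjusted p = 0.0446). In a fit of those 2 groups alone 0 of the 5 passed. Of all 12932 tested probes 0 passed there too, so that fit cannot set these 5 apart from the rest. Klf2, Tbx3 and the second Jam2 probe also lost the call without any 1 array of the Igf2-labelled, H19-labelled or parthenogenetic groups. The differences then were -0.51 to -0.48 for Klf2 and 1.07 to 1.41 for Tbx3. The 2 dim Jam2 probes lost the call without either H19-labelled array. Most calls over all tested probes ended in these fits as well.

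Of the other LIF and STAT3 signalling genes 13 of 14 were tested. On the Igf2-labelled arrays 0 passed in limma against parthenogenetic ES cells, with a median of -0.06. Only Myc had an unadjusted p under 0.05 there, beside 11.1% of all tested probes. It differed by -0.97 (adjusted p = 0.169) and passed without the normal arrays (adjusted p = 0.0227). Its level of 6.67 on replicate 1 lay just above the lowest detected signal of that array, 6.54. On replicate 2 its 6.38 lay below that array's lowest detected signal of 6.59, so Myc was not detected there. The difference of -0.97 thus rests partly on an undetected level. Counted from the lowest detected signal of each array, the undetected Myc was at least 1.84-fold lower on the H19-labelled arrays (adjusted p = 0.0646). Bcl3, a STAT3 target and coregulator of NF-kappaB, rose by 0.78 (SE 0.12, adjusted p = 0.0254) on the H19-labelled arrays, where the list had a median of -0.33. The median of all 8733 named genes was -0.01 and 0.01 in these comparisons. The brightest others there were Pim3, a kinase gene (0.04, adjusted p = 0.88), Ptpn11, the phosphatase SHP2 (-0.33, adjusted p = 0.245), and Junb, an AP-1 subunit (-0.77, adjusted p = 0.173). When the normal arrays were left out 2 rose and 5 fell on the H19-labelled arrays, beside 33.2% of all tested probes in both directions. Ptpn11 and Junb were among those that fell (adjusted p = 0.0164 and 0.00114). In that fit 18 of the 19 fibroblast markers fell too, and on normal replicate 2, where these markers were lowest, Junb stood at 10.86 and Ptpn11 at 12.44, against 11.84 and 12.86 on normal replicate 1. The part of the fibroblast markers in these falls was not tested.

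Among 14 tested of 23 other naive and general pluripotency genes, Gbx2, a homeobox gene downstream of STAT3, fell by 1.27 (SE 0.10, adjusted p = 0.00644) on the Igf2-labelled arrays and fell by 1.04 (SE 0.10, adjusted p = 0.00725) on the H19-labelled arrays. Dppa3, a maternal factor that also marks naive and germ cells, rose by 0.86 (SE 0.12, adjusted p = 0.0456) on the Igf2-labelled arrays, and on the H19-labelled arrays it differed by -0.16 (adjusted p = 0.484). The direct difference of Dppa3 between the H19-labelled and Igf2-labelled arrays was -1.01 (adjusted p = 0.044). The list's medians were 0.14 on the Igf2-labelled and 0.20 on the H19-labelled arrays. Higher means were found for 11 and 10 of the 14 genes. When the normal arrays were left out 4 rose and 1 fell in the first comparison, and 6 rose and 1 fell in the second. Among all tested probes 9.7% and 33.2% passed in either direction in that fit.

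Other Krüppel-like factors, 8 tested of 14, gave no call in limma for either modified line against parthenogenetic ES cells, with 0 genes at an unadjusted p under 0.05 on the Igf2-labelled and 4 on the H19-labelled arrays. Among all tested probes 11.1% and 23% had such a p in these comparisons. On the H19-labelled arrays Klf6 differed by -0.78 (adjusted p = 0.113). When the normal arrays were left out it fell with Klf7, Klf3 and Klf13 (adjusted p = 0.000991 to 0.028), as did 17.1% of all tested probes. These falls also moved with the fibroblast markers, whose median difference was -0.83. On normal replicate 2 Klf6 stood at 12.91, Klf7 at 9.45, Klf3 at 10.39 and Klf13 at 10.27, below the 13.69, 10.39, 11.43 and 10.50 of normal replicate 1, and the part of these markers was not tested. Klf9, the brightest of them, differed by -0.08 there. Of the adhesion genes related to Jam2, 6 of 9 were tested and none passed in limma against parthenogenetic ES cells. On the Igf2-labelled arrays 2 had an unadjusted p under 0.05 and on the H19-labelled arrays 1, beside 11.1% and 23% of all tested probes. Jam3, its closest relative among them, differed by 0.19 on the Igf2-labelled and 0.08 on the H19-labelled arrays, and F11r, which encodes JAM-A, by 0.37 and 0.31. Cdh1, the epithelial cadherin gene and the brightest of these, differed by 0.32 on the H19-labelled arrays (adjusted p = 0.181, and 0.0184 without the normal arrays).

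**Figure D4:**
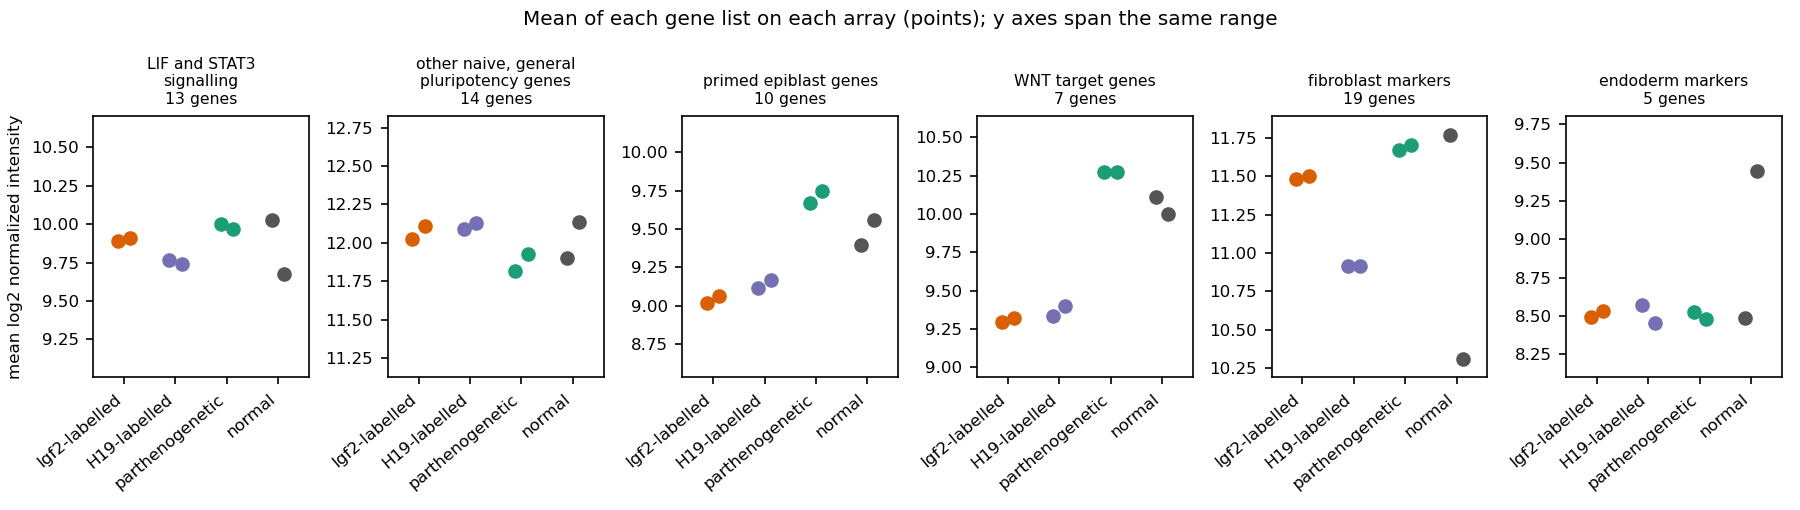
Mean log2 normalized intensity of 6 gene lists on each array (points), with y axes of equal span, from the Igf2-labelled group to the normal one. The LIF and STAT3 list lies between 9.68 and 10.03 on all arrays, the other naive genes between 11.81 and 12.14, and the primed epiblast and WNT target lists are lower on the 4 modified arrays than on the other 4.

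Likeness of pattern was taken for the 3 members with the widest range of group means, as the Pearson correlation of their brightest probe with 8723 other named genes over the 8 arrays. With 2 arrays in each of 4 groups it mainly reflects group means, and it is given as a description. For Tcl1 the closest genes were Ddc at 0.985, Ap4s1 at 0.984 and Gdf3 at 0.975. Jam2 was most like Ezhip at 0.990, Pycard at 0.986 and Dnajb13 at 0.984. The Tbx3 pattern was nearest to Irak2 at 0.991, Dok3 at 0.990 and Nxt2 at 0.982.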

How the data were processed

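The authors deposited an intensity table with a detection p-value per probe, per the file headers, not normalized between arrays as far as its values show, and a log2 table of 12690 probes. Every array in the deposited log2 table has a median of 9.55, and the tool behind it is not given in the sources used here. Here neqc in limma 3.58.1 (R 4.3.3), with an offset of 16, corrected the background of the intensities, quantile normalized them and took log2. A probe was tested where its detection p-value was under 0.05 for each array of 1 or more groups, with lmFit and eBayes over all 8 arrays (4 residual and 2.81 prior degrees of freedom; 3 and 3.29 without the normal arrays), with Benjamini-Hochberg adjustment over 12932 probes in each of 6 comparisons. The SE is that of the moderated fit. The limma step was run on simulated data in which a probe had the same spread on every array. It therefore does not cover the wider gap between the normal arrays.

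Probe names came from the platform annotation, which named 11960 probes and left 13737 unnamed here. Listed genes are represented by their brightest tested probe. All members are named. Of each list up to 4 genes past the threshold and up to 3 others by level are named, and Myc, Klf7, Klf13, Jam3 and F11r were chosen after their values were seen. The members and lists were chosen with earlier results of these data known. Alternatives were another background correction, median scaling, no detection filter, the authors' log2 table, fits of fewer groups, the replicate number as a block, and leaving out each array.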

Additional observations from a re-analysis of the deposited data

How the results depend on the processing

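Member probe counts past the threshold stayed within 1.5 times those reported under normexp with an offset of 50, median scaling, no detection filter and the authors' log2 table in all 6 comparisons. The 2 groups alone gave 5 member probes for Igf2-labelled against parthenogenetic, 11 for H19-labelled against parthenogenetic, 2 for H19-labelled against Igf2-labelled and 0 for H19-labelled against normal, and the fit without both normal arrays gave 9, 12 and 2 in the first 3. Leaving out 1 array gave 0 to 9, 0 to 12 and 0 to 2 there, 0 to 13 for parthenogenetic against normal, 0 to 11 for Igf2-labelled against normal and 0 to 11 for H19-labelled against normal. Such fits have 3 residual degrees of freedom, and those without a normal array also lose the gap between the normal arrays.

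Over all tested probes, the 2 groups alone gave 874, 4039, 0, 2271, 2 and 0 calls for Igf2-labelled against parthenogenetic, H19-labelled against parthenogenetic, parthenogenetic against normal, H19-labelled against Igf2-labelled, Igf2-labelled against normal and H19-labelled against normal, where all arrays gave 70, 563, 14, 26, 136 and 650. Without both normal arrays the first, the second and the fourth gave 1254, 4288 and 2663. The authors' log2 table gave 8 for parthenogenetic against normal and 17 for H19-labelled against Igf2-labelled. Leaving out 1 array gave 2 to 1254, 0 to 4288, 3 to 5193, 0 to 2663, 2 to 5300 and 36 to 3952 in the same order of comparisons. For parthenogenetic against normal the brightest Tbx3 probe ran from -0.43 without normal replicate 2 to 0.32 without normal replicate 1.

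The replicate numbers were not taken to pair the samples, since no label says that they do, and deviations of same-numbered arrays correlated at -0.03 to 0.17, with 3 of the 6 group pairs over 0.1. With the replicate number as a block 26, 314, 3 and 47 probes passed for Igf2-labelled against parthenogenetic, H19-labelled against parthenogenetic, H19-labelled against Igf2-labelled and Igf2-labelled against normal, and 3 member probes passed for H19-labelled against parthenogenetic and 3 for H19-labelled against normal. Klf2 then had an adjusted p of 0.0582 and the third Jam2 probe one of 0.055 for H19-labelled against parthenogenetic, and against normal Klf2 had 0.0734 and the dimmest Tbx3 probe 0.0793. With 2 arrays a group, the precision rests on the shared spread, and the spread of a group left with 1 array was taken from the other groups.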

Other observations

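Several genes of the primed epiblast, the state that follows the naive one, and several direct WNT targets fell in the modified lines against parthenogenetic ES cells. Both lists were chosen with earlier results of these data known, so their counts beside the share of all probes are a description. Of 10 tested of 14 primed genes, 3 fell on the Igf2-labelled arrays, beside 0.541% of all tested probes that passed in either direction. Wnt8a, a WNT ligand gene, was not detected on the 4 modified arrays and was at least 2.00-fold lower on the Igf2-labelled (adjusted p = 0.00275) and at least 1.94-fold lower on the H19-labelled arrays (adjusted p = 0.00266), counted from the lowest detected signal of each array. Pou3f1, which encodes the POU factor OCT6, fell by 1.31 (SE 0.14, adjusted p = 0.0193) and Lef1, a nuclear effector of WNT signalling that is on both lists, fell by 1.08 (SE 0.14, adjusted p = 0.0341), and the list's median was -0.55. On the H19-labelled arrays 2 primed genes fell and 1 rose, beside 4.35% of all tested probes that passed in either direction. Pou3f1 fell by 1.64 there (SE 0.14, adjusted p = 0.00447), while Otx2, a homeobox gene of the primed state, rose by 0.82 (SE 0.11, adjusted p = 0.017), and the median was -0.54. The medians of all named genes were -0.01 and 0.01.

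Of 7 tested of 10 WNT target genes, 4 fell on the Igf2-labelled arrays and 3 on the H19-labelled arrays. Among all tested probes 0.541% and 4.35% passed in either direction. Sp5, a zinc finger target of WNT signalling, fell by 2.43 (SE 0.25, adjusted p = 0.0193) on the Igf2-labelled arrays. On the H19-labelled arrays it was detected on 1 of 2 and not on replicate 1, and was lower by at least 2.99 on the log2 scale (adjusted p = 0.0036) with that replicate set at its lowest detected signal. Notum, which encodes a deacylase that inactivates WNT proteins, fell by 1.47 on the Igf2-labelled arrays (adjusted p = 0.0193) and fell by 0.98 on the H19-labelled arrays (adjusted p = 0.0226). Tcf7l1, the repressor of Esrrb, differed by 0.56 (adjusted p = 0.165) on the Igf2-labelled and 0.50 (adjusted p = 0.0916) on the H19-labelled arrays, and passed without the normal arrays in both (adjusted p = 0.0102 and 0.00375). Esrrb itself did not pass in either fit. The fibroblast markers were also lower on the H19-labelled arrays, and on normal replicate 2, where they were lowest, Sp5 stood at 8.84 and Pou3f1 at 11.14, against 9.62 and 10.91 on normal replicate 1. Their part in these falls was not tested.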
